A study of Arabidopsis thaliana with 3 samples.

Results

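The binding sites of a GFP fusion of DIG1 along the Arabidopsis thaliana genome are described here from the deposited ChIP-seq peak list of that sample. All rows of the list on chromosomes 1 to 5 were taken, which gave 13459 summits in 11343 distinct intervals, out of 30021 summits in 24783 intervals in the lists of the series. The series held 3 samples of the accession Col-0, with 1 sample per group: seedlings expressing the GFP fusion of DIG1, seedlings expressing a GFP fusion of DIG2, and seedlings expressing GFP alone. All 3 were whole seedlings, 4 days old and kept dark in hydroponic culture, to which the glucocorticoid dexamethasone was added at 10 uM for the last 6 h. Crosslinked chromatin, sheared to between 100 and 500 bp, was precipitated with an antibody against GFP in every sample. A list for GFP alone was not analysed, and the control behind the DIG1 list is not stated in what was used. The same is true of the promoter of the fusion and of its protein level. A tagged protein produced after induction may occupy other sites than the native protein.

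The study concerned transcription factors of the response to abscisic acid (ABA), the plant hormone of drought and seed dormancy. ABA binds receptors of the PYR/PYL family, which then hold back phosphatases of clade A of the PP2C family. SnRK2 kinases are thereby freed and act on bZIP transcription factors, among them the ABFs, that switch on genes of dehydration tolerance. A summit in a ChIP-seq list marks the position of the highest read density inside an enriched interval, so the place and number of summits at a gene describe where the tagged protein was crosslinked near it.

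The authors' −log10 p of the summits ranged from 16 to 1075 with a median of 50.8, and their fold enrichment ranged from 1.61 to 16.7 with a median of 3.19. Both are values of the authors and are used only to describe and rank intervals within the list. The intervals had a median width of 591 bp, with quartiles of 446 and 856 bp and a widest interval of 5752 bp. Chromosomes 1, 2, 3, 4 and 5 held 3024, 1763, 2154, 1751 and 2651 intervals, and the median width per chromosome stayed between 579 and 598.5 bp. There was 1 list and no replicate, so shares carry 95% Wilson intervals that cover counting error only, and no difference below has a replicate check.

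The sample title gives DIG1 the locus AT3G45810. The RefSeq gene table lists that locus with the synonym RbohJ, the name of a respiratory burst oxidase, an enzyme that makes reactive oxygen. AT3G45810 held no summit within the gene or 1000 bp of it. AT3G48510, whose number differs from the labelled one by an exchange of a pair of digits and which was looked up after its values were seen, held 2 intervals. The stronger of these had 2 summits, a fold of 6.82 and a −log10 p of 176, and its summit lay inside the gene, 510 bp from an end. AT5G50360, the labelled locus of DIG2, held 1 interval, 433 bp outside the gene, with a fold of 7.04. No gene of the table is named DIG1 or DIG2, so the table could not settle which locus encodes the tagged protein, and the number in the title may be an error.

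DIG1 summits lay mostly outside protein-coding genes and gathered sharply around gene ends. Of all summits, 71.9% (71.2 to 72.7%) lay outside protein-coding genes and 28.1% (27.3 to 28.8%) inside. The first 1000 bp outside a gene held 50.4% (49.6 to 51.3%), the next 1000 bp 12.7%, the sequence over 2000 and up to 5000 bp away 8.09%, and sequence farther than 5000 bp 0.728%, or 98 summits. The first 200 bp outside a gene end alone held 24.1% of the summits, and the first 200 bp inside held 16.5%. Thus the 3241 summits just outside and the 2217 just inside a gene end were more numerous than the 997 summits that lay over 500 bp inside a gene from both of its ends. The median distance to the gene end was 474 bp for summits outside genes and 139.5 bp for those inside. The gene table gives no strand, so the start and the end of a gene were not told apart, and exons, introns and untranslated regions were not separated either.

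Because short intergenic stretches are common, the summits were also counted per Mb of sequence lying at each distance from a gene end. Sequence between 1 and 100 bp outside a gene end held 459 summits per Mb, the highest density of any distance class. The density was 372 per Mb in the next 100 bp and 228 per Mb in the 100 bp after those, and in the classes from there to 2000 bp it stayed between 178 and 218 per Mb. It was 163 per Mb up to 3000 bp, 89.3 per Mb up to 5000 bp, 21.2 per Mb up to 10000 bp and 1.03 per Mb beyond. Inside genes, the outermost class, up to 100 bp from an end, held 284 summits per Mb and the next, up to 200 bp, 130 per Mb. Between 200 and 500 bp inside a gene the density was 38.2 per Mb, and between 500 and 1000 bp it was 24.6 per Mb. Over all genes and over all sequence between them the densities were 58.6 and 177 per Mb. The profile was not symmetrical about the gene end: the density was at most 38.2 per Mb in every class over 200 bp inside, and at least 178 per Mb in every class up to 2000 bp outside. Reads that cannot be placed on repeated sequence were not corrected for, and their part in the density far from genes was not tested.

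**Figure D1:**
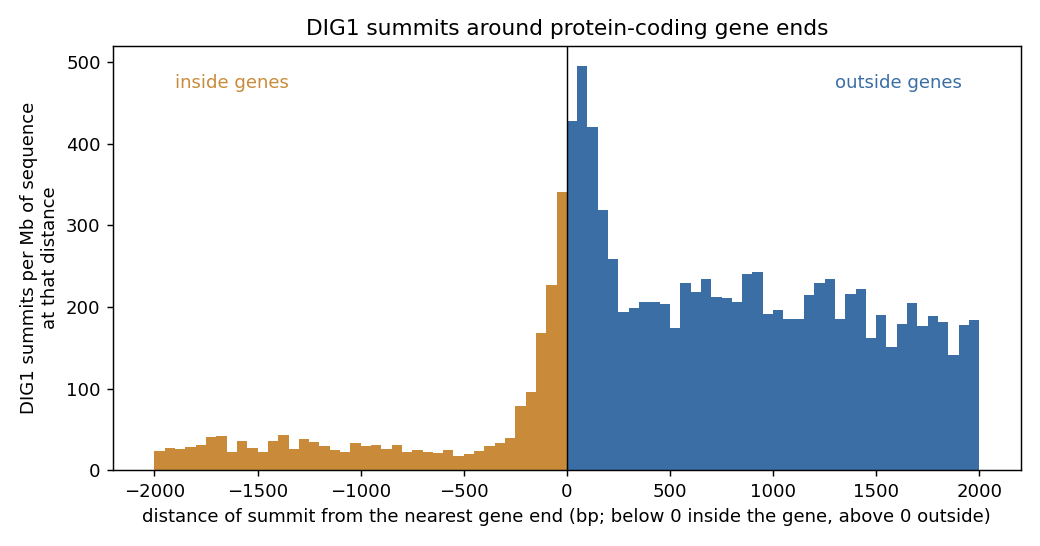
DIG1 summits per Mb of sequence in bins of 50 bp by distance from the nearest protein-coding gene end, with negative distances inside genes (ochre) and positive ones outside (blue). The highest bin lies 50 to 100 bp outside the gene end at 495 per Mb, and bins over 500 bp inside reach at most 42.7 per Mb.

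In stronger intervals a smaller share of the summits lay inside genes. In the strongest of 5 equal parts of the list (−log10 p of 147 and above) 22.6% of summits lay inside genes (21.2 to 24.1%), and the shares in the following parts were 26.3%, 28.5%, 31.6% and 33.2% (31.4 to 35.2%). Summits over 2000 bp from any gene made up 10.2% of the strongest part and 7.04% of the weakest. The median −log10 p was 43.4 for summits inside genes, 52.9 for those outside within 1000 bp and 57.6 for those over 2000 bp away, with quartiles of 25.6 and 93.7 for the first and of 30.4 and 117 for the last, so the ranges overlapped widely. Strong intervals were also wider and held more summits. The strongest part had a median width of 819 bp and 1.38 summits per interval, and the weakest 424 bp and 1.03.

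Intergenic stretches differed in how often they held a summit. Of 23810 stretches between neighbouring protein-coding genes, 6034 (25.3%) held a summit. The share was 5.56% for stretches up to 250 bp, 14.7% for those up to 500 bp, 20.6% up to 1000 bp, 30.3% up to 2000 bp, 43.5% up to 3000 bp, 51.1% up to 5000 bp and 53.9% up to 10000 bp. Beyond 10000 bp it was 31.0%. Per Mb the shortest stretches held most, with 507 summits per Mb, while those over 5000 and up to 10000 bp held 204 per Mb and the longest class 31.0 per Mb. At least 2 separate intervals lay in 1496 stretches, among them 32.3% of those over 5000 and up to 10000 bp.

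A gene was counted as having a summit when one lay within it or at most 1000 bp outside either end. By this rule 10342 of 27444 protein-coding genes (37.7%) held at least 1 interval, 2284 (8.32%) at least 2, 288 (1.05%) at least 3 and 21 (0.0765%) at least 4. Exactly 1 interval lay at 8058 genes, 2 at 1996, 3 at 267, 4 at 19 and 5 at 2 genes. Counted by summits, 3144 genes (11.5%) held 2 or more, and the most were 7 at 1 gene. The median −log10 p of the strongest summit was 51.3 at genes with 1 interval, 102 at genes with 2 intervals and 114 at genes with 3. Genes with more intervals thus also held stronger ones, although a maximum over more summits is itself larger.

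**Figure D2:**
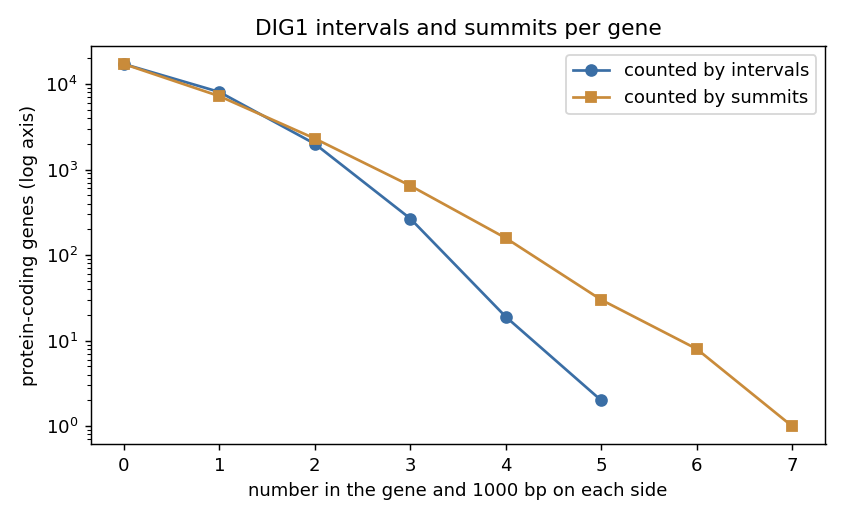
Number of protein-coding genes (log axis) by how many DIG1 intervals (circles) or summits (squares) lay in the gene and 1000 bp on each side. The counts run from 17102 genes without any to 2 genes with 5 intervals and 1 gene with 7 summits.

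One interval often stood at more than 1 gene. Of the 11343 intervals, 5546 (48.9%) had a summit in reach of 1 protein-coding gene, 3579 (31.6%, 30.7 to 32.4%) in reach of at least 2, and 2218 (19.6%) in reach of none. The largest number of genes reached by 1 interval was 4. Each summit assigned to its nearest gene alone would leave 7856 genes with a summit and 1466 with at least 2 intervals. Pairs of neighbouring genes that both held 2 or more intervals numbered 528, and in 386 of these the pair shared at least 1 interval, so neighbouring genes are not separate observations.

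The number of intervals was also set beside the length of a gene and the room on its flanks. At least 1 interval lay at 22.7% of genes up to 1000 bp long, 35.4% of those up to 2000 bp, 43.1% up to 3000 bp, 44.9% up to 5000 bp and 41.7% of longer ones. Per Mb of gene and flank together the number of intervals was highest at 126 for genes over 1000 and up to 2000 bp and lowest at 58.9 for genes over 5000 bp. Genes with 2000 bp free of other genes on their flanks held 2 or more intervals in 12.6% of cases (11.8 to 13.5%), against 2.74% (2.32 to 3.23%) of genes with at most 500 bp free. For at least 1 interval these shares were 39.0% and 27.9%, but the classes between them, up to 1000, up to 1500 and under 2000 bp, had 39.1%, 40.6% and 40.7%, so that beyond 500 bp the share with any interval changed little.

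Other gene types were counted with the same window, in which 37.7% of protein-coding genes held an interval. Of 221 genes listed as ncRNA, 36.7% held one (30.6 to 43.2%), which includes the protein-coding share. Intervals lay at 28.1% of 508 genes of miscellaneous RNA, 25.6% of 82 snRNA genes and 20.3% of 79 antisense RNA genes. Intervals also lay at 33.2% of 3480 long noncoding RNA genes, 21.4% of 625 tRNA genes, 21.2% of 326 microRNA genes, 10.8% of 287 snoRNA genes and 10.6% of 926 transcribed pseudogenes. The lowest share of these types, 3.24% (2.73 to 3.84%), was that of 3917 other pseudogenes, of which 7 held a summit inside. The span counted includes the gene itself, and gene types differ in length. The median length was 73 bp for tRNA, 144.5 bp for microRNA and 343 bp for long noncoding RNA genes. It was 2043 bp for the other pseudogenes and 2078 bp for protein-coding genes. Of protein-coding genes up to 1000 bp long, 22.7% held an interval. The part of length in these shares was not tested. How many of these intervals were also in reach of a protein-coding gene was not tested either.

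Neighbouring summits were grouped by whether they lay in the same interval or in neighbouring ones, a division made in peak calling that itself puts the shorter distances in the first group. The 2116 pairs of neighbouring summits inside the same interval were a median of 539 bp apart, with quartiles of 420 and 684.5 bp and a smallest distance of 113 bp. Of these pairs, 20.3% lay over 400 and up to 500 bp apart and 19.8% over 500 and up to 600 bp, the fullest classes of 100 bp. The 11338 pairs in neighbouring intervals were a median of 4550 bp apart, with quartiles of 1860 and 11491 bp. At most 1000 bp separated 986 (8.70%) of them and at most 2000 bp 3040 (26.8%). Edge to edge, no 2 intervals came closer than 131 bp, and 86 pairs lay within 20 bp of that limit. The distances of both groups ran into each other, and between 794 and 1000 bp lay 182 pairs of the same interval and 559 pairs of neighbouring intervals. The part of the peak caller's own limits in the shortest distances was not tested.

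**Figure D3:**
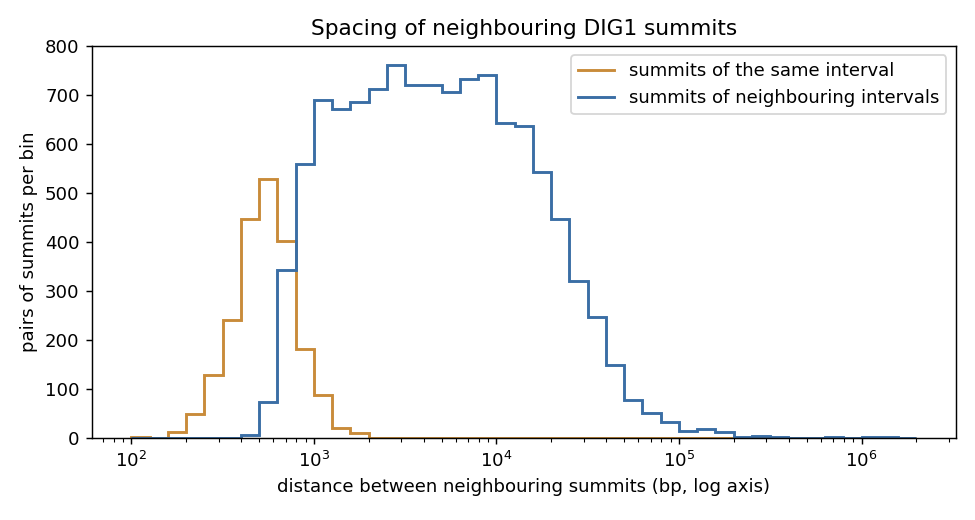
Distances between neighbouring DIG1 summits on a log axis, as the number of pairs per bin, for summits of the same interval (ochre) and of neighbouring intervals (blue). The pairs within an interval gather around their median of 539 bp, and those between intervals spread broadly around a median of 4550 bp.

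Most intervals, 9697 or 85.5%, had a single summit, while 1305 had 2 and 341 had 3 or more. Intervals with 1 summit had a median width of 543 bp and those with 3 or more a median width of 2045 bp. In the 1305 intervals with 2 summits the stronger one had a median fold of 4.17 and the weaker one 2.74, and the −log10 p of the stronger was a median of 2.02 times that of the weaker. The stronger summit lay inside a protein-coding gene in 21.8% of these intervals and the weaker one in 26.7%. In 26.0% of them 1 summit lay inside a gene and the other outside.

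The intervals with most summits lay on chromosomes 1 and 3. An interval of 5593 bp with 8 summits (chromosome 1, 4522621 to 4528213, TAIR10) reached 3 genes: RTFL17 (AT1G13245), which encodes a small peptide of the DEVIL family, GATL3 (AT1G13250), which encodes a galacturonosyltransferase-like protein, and AT1G13230. Its strongest summit, with a −log10 p of 301, lay 350 bp outside RTFL17. A second interval with 8 summits (chromosome 1, 5385036 to 5389410) began inside CENP-C (AT1G15660), the gene of a centromere protein. It ended short of AT1G15670, which the table lists as Kelch repeat F-box 1. Its strongest summits within 1000 bp of these genes were 900 and 770 bp from them. The strongest summit of the whole interval, with a −log10 p of 266, was in reach of neither. The third with 8 summits (chromosome 3, 9736572 to 9742278) and one with 7 (chromosome 1, 4534763 to 4539884) were in reach of no protein-coding gene. An interval with 6 summits near AT1G72510 (chromosome 1, 27299902 to 27303867) had the strongest summit of these 5, with a −log10 p of 756.

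Genes with 2 separate intervals showed a few common layouts. Of the 1996 such genes, 872 (43.7%, 41.5 to 45.9%) had 1 interval outside each end, 809 (40.5%) had 1 inside the gene and 1 outside, 186 (9.32%) had both inside and 129 (6.46%) had both outside the same end. The intervals outside both ends were a median of 2907 bp apart, and those outside the same end a median of 739 bp. The stronger interval had a −log10 p a median of 2.37 times that of the weaker. Of the 8058 genes with 1 interval, 21.8% had it inside. Of the 288 genes with 3 or more, 129 (44.8%, 39.2 to 50.6%) held intervals inside and beyond both ends, and 17 held them all inside.

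The genes with most separate intervals in the whole list were ROT3 and TGA9, with 5 each. This order depended on weak intervals: with a −log10 p of at least 30 both held 3, while CAT6, TCP14 and 8 others of the 15 genes described here held 4. ROT3 (AT4G36380) encodes CYP90C1, a cytochrome P450 of brassinosteroid synthesis. Its intervals were spread over 5974 bp, with summits 125 bp outside one end (fold 4.92), 3 inside the gene at 2022, 1221 and 117 bp from the nearer end (folds 4.63, 2.43 and 2.55) and 1 at 870 bp outside the other end (fold 2.26). The strongest interval thus lay just outside one end and the weakest beyond the other. TGA9 (AT1G08320) encodes a bZIP factor of the TGA group known from anther development. Its strongest summit was inside the gene, 970 bp from an end, with a fold of 5.08 and a −log10 p of 183, and the other 4 had folds of 2.33 to 3.14.

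Of the 19 genes with 4 intervals, 13 completed the 15 named by number of intervals. CAT6 (AT5G04770), which encodes a cationic amino acid transporter, held 7 summits, the most of any gene, and its strongest intervals lay 1854 bp inside the gene (fold 6.41) and 895 bp outside it (fold 6.29). TCP14 (AT3G47620), the gene of a TCP factor of growth and germination, had intervals of nearly even strength, with folds of 4.93, 5.56, 4.95 and 4.23 at 730 bp outside one end, 69 and 72 bp inside either end and 610 bp outside the other. PIN7 (AT1G23080), the gene of an auxin efflux carrier, had 1 strong interval inside the gene at 1259 bp from an end (fold 6.20) and 3 weak ones with folds of 2.19 to 2.92. AT1G67900 held the strongest single summit of the 15, with a −log10 p of 617 and a fold of 11.0 at 7 bp outside an end, and a second of fold 7.30 at 93 bp outside the other end.

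Among the other genes of the 15, EXPA6 (AT2G28950) encodes an expansin, a wall-loosening protein, and its strongest summit lay 110 bp outside an end with a fold of 6.98, while the other 3 had −log10 p of 30.3 to 34.9. FLA18 (AT3G11700) encodes a fasciclin-like arabinogalactan protein and had its strongest summit 55 bp inside the gene with a fold of 6.04. HEXO3 (AT1G65590) encodes a beta-hexosaminidase and was the one gene of the 15 with all 4 intervals inside, the strongest 1968 bp from an end with a fold of 6.65. PSK4 (AT3G49780) encodes a precursor of the peptide hormone phytosulfokine, with its strongest summit 927 bp outside the gene at a fold of 4.70. The remaining genes were ILL6 (AT1G44350), AT3G57800, AT3G05165, AT3G07010 and AT1G18290. ILL6 encodes a hydrolase related to those that free auxin from its conjugates and had folds of 3.26 to 3.68. The other genes had strongest −log10 p within the window of 187, 119, 117 and 85.6, in the order given. No theme was tested for these 15 genes.

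**Figure D4:**
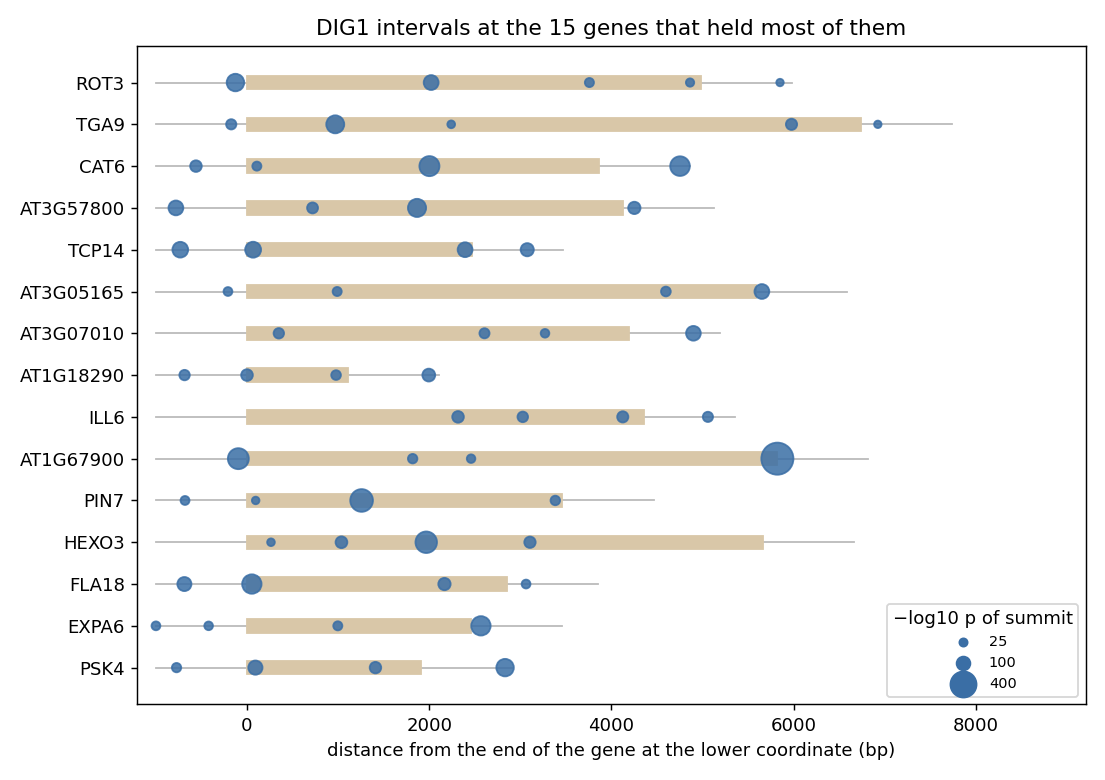
The 15 genes with most separate DIG1 intervals, drawn to scale as ochre bars with 1000 bp on each side (grey lines), against distance from the gene end at the lower coordinate. Each dot is the strongest summit of 1 interval in that window and its area grows with −log10 p, so that AT1G67900 (617) has the largest dot and ROT3 and TGA9 have 5 dots each.

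Runs of intervals reached well beyond the window of single genes. With intervals joined into a run wherever successive strongest summits lay at most 2000 bp apart, 6554 intervals stood alone, 1384 runs held 2, 426 held 3, 120 held 4, 32 held 5, 10 held 6, 5 held 7 and 1 held 8. The genes in this and the following paragraph were looked up after the runs were found. The longest run held 8 intervals over 11.0 kb in the stretch beside NCED3 (AT3G14440), which encodes the dioxygenase of the key step of ABA synthesis under drought (chromosome 3, 4835318 to 4846302). Its summits lay 1543, 3511, 5006, 6401, 8390, 9462, 11432 and 12132 bp from NCED3, with folds of 3.21, 3.19, 10.3, 11.5, 2.75, 4.58, 6.43 and 2.34. The strongest, at rank 71 of the list with a −log10 p of 651, thus stood 6401 bp from NCED3 and 9123 bp from CID9 (AT3G14450), the gene on the other side. None of these 8 was counted for NCED3 by the window of 1000 bp, which held 1 interval with a −log10 p of 40.5. No step other than 2000 bp was run for any of the runs. Several successive summits of the run beside NCED3 lay only slightly less than 2000 bp apart, so a slightly smaller step would divide it.

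Other long runs lay across groups of neighbouring genes. A run of 7 intervals over 9.18 kb (chromosome 4, 13014982 to 13024161) covered CBF2, DREB1A and CBF1 (AT4G25470, AT4G25480 and AT4G25490), which encode AP2/ERF factors of the cold response, with −log10 p from 26.0 to 451. A run of 7 intervals with 10 summits over 8.73 kb covered HAT3 (AT3G60390), a homeodomain-leucine zipper gene, with −log10 p from 18.0 to 336. Runs of 7 intervals also covered IAA2 (AT3G23030) with AT3G23020, the AP2/ERF gene TINY (listed as tny, AT5G25810), and the sulfotransferase genes ST2B and ST2A (AT5G07000 and AT5G07010), and their strongest −log10 p were 230, 197 and 106.

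The intergenic stretches with most intervals had 7 or 8 of them. After the NCED3 stretch of 15.5 kb, 8 intervals lay in the 19.0 kb between ARF6 (AT1G30330), the gene of an auxin response factor, and AT1G30350, the strongest 14417 bp from ARF6 with a −log10 p of 364. In the 8.75 kb between DWF4 (AT3G50660), which encodes the rate-limiting hydroxylase of brassinosteroid synthesis, and U1-70K (AT3G50670), 7 intervals were found. The strongest of them had a fold of 9.83 and a −log10 p of 691 and lay in mid-stretch, 4641 bp from DWF4 and 4114 bp from U1-70K. The 10.8 kb beside CYP707A3 (AT5G45340), which encodes an ABA hydroxylase, held 7 intervals, of which the strongest (fold 9.19, −log10 p 593) lay 7723 bp from CYP707A3 and 3055 bp from AT5G45350. The stretch beside GH3.3 (AT2G23170), whose product joins auxin to amino acids, held 7 intervals in 8.34 kb, with the strongest 2275 bp from the gene (fold 8.14). The stretch between the proton pump gene HA2 (AT4G30190) and VEL1 (AT4G30200) held 7 intervals with 9 summits of −log10 p between 19.4 and 111. Such summits far from both neighbours cannot be assigned to either gene from the list.

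At the other extreme, the longest distances between neighbouring summits were 1.57 Mb on chromosome 1 (14305817 to 15880488), 1.53 Mb on chromosome 5 (11025055 to 12558243) and 1.09 Mb on chromosome 2 (2985209 to 4077350). They held 16, 25 and 127 protein-coding genes. The stretch on chromosome 5 lay between summits near PHL1 (AT5G29000) and XGD1 (AT5G33290), and that on chromosome 2 began near AT2G07180. In all, 63 neighbouring summits lay more than 100000 bp apart. Whether reads can be placed uniquely in these stretches was not tested.

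Within the ABA pathway, several separate intervals were found at receptors and phosphatases. Of 14 receptor genes, 10 held an interval (71.4%, 45.4 to 88.3%, against 37.7% of all protein-coding genes). Of the 14, 5 held 2 or more (35.7%, 16.3 to 61.2%, against 8.32% of all protein-coding genes). PYR1 had 3, of which the strongest was 749 bp outside the gene with a fold of 4.49, and PYL5 had 2 of nearly the same strength on opposite sides, at 560 bp outside one end (fold 6.49) and 418 bp outside the other (fold 6.86). PYL8 had both of its intervals inside the gene, at 27 and 373 bp from an end (folds 8.02 and 3.52). PYL3, PYL10, PYL11 and PYL12 held none. All 9 genes of clade A PP2C phosphatases held an interval (Wilson interval 70.1 to 100%) and 3 held 2 (33.3%, 12.1 to 64.6%). AHG3 had 2 strong ones flanking the gene at 972 and 210 bp (folds 7.74 and 8.92), HAI2 had a weak one 53 bp inside (fold 3.11) and a strong one 253 bp outside (fold 8.49), and HAB1 had a pair at 62 and 598 bp outside opposite ends (folds 3.97 and 2.13). The receptor genes had a median of 2000 bp of flank free of other genes within the window, against 1134 bp over all protein-coding genes, and the part of this in their counts was not tested.

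SnRK2 kinase genes mostly held single intervals, as did 8058 of all 10342 protein-coding genes with an interval. Of 10, 9 held an interval (Wilson interval 59.6 to 98.2%, against 37.7% of all protein-coding genes) and 1 held 2, SNRK2.6 (OST1), the kinase gene of stomatal closure, at 631 bp outside the gene (fold 3.62) and 149 bp inside (fold 2.14). SNRK2.2 held none. SNRK2.3 and SNRK2.7 each held 1 interval with 2 summits in the window, the stronger with folds of 4.11 and 3.14. Of 8 ABA transcription factor genes, 4 held an interval, a share whose Wilson interval of 21.5 to 78.5% includes the 37.7% of all genes, and ABF2, ABI3, ABI4 and AREB3 held none. The share of these 8 with 2 or more intervals was 12.5% (2.24 to 47.1%), which includes the 8.32% of all genes. ABF1 had 2 intervals outside the same end, a strong one at 97 bp (fold 10.1) and a weak one at 829 bp (fold 2.09). ABF3, at the strongest summit of the list, and ABI5 had 1 interval with 2 summits each.

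Of 9 genes of ABA synthesis and breakdown, 4 held an interval within 1000 bp, and CYP707A2 held 3, the strongest 627 bp outside the gene (fold 6.11) with 1120 and 2313 bp inside for the others (folds 4.01 and 3.33). CYP707A1 and CYP707A3 had 1 each, at 100 and 99 bp outside the gene (folds 3.96 and 2.74). The strongest interval of the stretch beside CYP707A3, described above, lay 7723 bp from it and 3055 bp from AT5G45350. It was outside the window of both genes and cannot be assigned to either from the list. Of 16 dehydration and cold effector genes, 10 held an interval and 2 held more than 1. The neighbouring genes KIN1 and KIN2, with the same strongest −log10 p of 118, are both among the 10 and are not separate observations. COR47, a dehydrin gene, had 3, the strongest 173 bp inside an end (fold 13.2) and the others at 17 bp outside and 977 bp inside with −log10 p of 34.1 and 37.6. ERD14, another dehydrin gene, had 2, at 676 bp outside (fold 8.83) and 58 bp outside the other end (−log10 p 51.7). ERD10 had a single strong interval 498 bp outside (fold 15.2). The lists of 9 and 16 genes had shares of 44.4% (18.9 to 73.3%) and 62.5% (38.6 to 81.5%) with any interval, against 37.7% of all protein-coding genes. Their shares with 2 or more intervals were 11.1% (1.99 to 43.5%) and 12.5% (3.50 to 36.0%), near the 8.32% over all genes.

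Among light and clock genes, 7 of 8 genes of the PIF group of bHLH factors, many of which promote growth in the dark, held an interval, and 3 held 2 (37.5%, 13.7 to 69.4%). Over all protein-coding genes 37.7% held an interval and 8.32% held 2 or more. HFR1, an inhibitor of PIF factors in the same list, held 1. PIF5 had a strong interval 319 bp outside an end (fold 7.43) and another 810 bp inside (fold 5.50), PIF3 had 1 at 205 bp outside (fold 8.09) and a weak one 126 bp inside (fold 2.41), and PIF4 had 1 at 190 bp inside (fold 5.14) and 1 at 400 bp outside (fold 3.16). PIF7 held none. Of 9 photoreceptor genes, 6 held an interval (66.7%, 35.4 to 87.9%) and 3 held more than 1 (33.3%, 12.1 to 64.6%). PHOT1, the gene of a blue-light receptor of phototropism, had 3 intervals, all inside the gene and at 953 bp or more from either end, with folds of 3.08, 3.89 and 2.31. CRY1 and CRY2, cryptochrome genes, had 2 each, the stronger at 515 bp outside (fold 6.53) for CRY1 and at 239 bp inside (fold 4.09) for CRY2, and PHYC, PHYD and PHYE held none. Of 13 clock genes, 11 held an interval (84.6%, 57.8 to 95.7%) and 2 held more than 1 (15.4%, 4.33 to 42.2%, which includes the 8.32% of all genes). LUX had a strong one 131 bp outside (fold 8.89) and another 1716 bp inside (fold 5.26), PRR7 had weak ones at 24 and 167 bp outside opposite ends (folds 3.32 and 2.28), PRR5 had 1, and ELF3 and PRR3 held none.

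Repressor genes of jasmonate and auxin response were counted in the same way. Set beside them are 37.7% of all protein-coding genes with an interval and 8.32% with 2 or more. Of 10 JAZ genes, whose products hold back jasmonate response, 8 held an interval and 5 held 2 or more (Wilson interval 23.7 to 76.3%). JAZ4 had 3 weak ones (folds 2.98 to 3.20), JAZ3 had a strong one 94 bp outside (fold 7.72) and another 917 bp inside (fold 4.23), and JAZ5 had a strong one 18 bp outside (fold 10.6) and a weak one 497 bp outside the other end (fold 2.33). JAZ8 and JAZ11 held none. Of 24 Aux/IAA genes, whose products repress auxin response, 19 held an interval and 5 held 2 (20.8%, 9.24 to 40.5%). IAA7 had both inside near opposite ends, at 40 and 193 bp, with folds of 4.00 and 3.37, IAA2 had 1 inside at 88 bp (fold 4.15) and 1 at 817 bp outside (fold 4.49), and IAA9 had 1 outside each end (folds 5.05 and 3.05). The 24 were found by symbol, which misses family members listed under other symbols: looked up afterwards, AXR3 (AT1G04250) and ATAUX2-11 (AT5G43700) held 2 intervals each and SHY2 (AT1G04240) held 1. The difference between the JAZ and Aux/IAA shares was not tested, and their intervals overlap.

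In the transcription factor families, 45 of 67 WRKY genes held an interval (67.2%) and 15 held 2 or more (22.4%, 14.1 to 33.7%). WRKY8 had 3, the strongest inside the gene at 1265 bp from an end (fold 7.19), WRKY65 had 3 with folds of 2.76 to 5.22, and WRKY11 had 2 intervals with 5 summits in its window. Of 81 NAC genes, 40 held an interval (49.4%) and 11 held 2 or more (13.6%, 7.76 to 22.7%). NAC032 had 3 weak ones (folds 2.16 to 3.65), the gene listed as NAC3 (AT3G15500) had 2 intervals with 5 summits in its window (folds 8.29 and 4.82), and NAC1 had 1 inside at 1111 bp (fold 7.66) and 1 outside at 630 bp (fold 4.39). Of 13 heat shock factor genes, 9 held an interval and 5 held 2 or more (38.5%, 17.7 to 64.5%). HSFA7A had 3, at 281 bp outside (fold 5.39), 806 bp inside (fold 4.33) and 127 bp outside the other end (−log10 p 23.9), while HSFA6A had 1 outside each end (folds 4.40 and 4.08) and HSFC1 had 1 inside and 1 outside (folds 3.28 and 3.37). HSFA2, HSFA9, HSFB3 and HSFB4 held none. Beside these shares stand 37.7% of all protein-coding genes with an interval and 8.32% with at least 2, and no list was tested against them. The median flank free of other genes was 1752 bp for WRKY, 1702 bp for NAC and 1637 bp for heat shock factor genes. It was 2000 bp for genes of ABA synthesis and breakdown and 1488.5 bp for Aux/IAA genes, against 1134 bp over all protein-coding genes. Clock and SnRK2 genes had less, with 1000 and 1092.5 bp. The part of free flank in the shares of the lists was not tested.

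**Figure D5:**
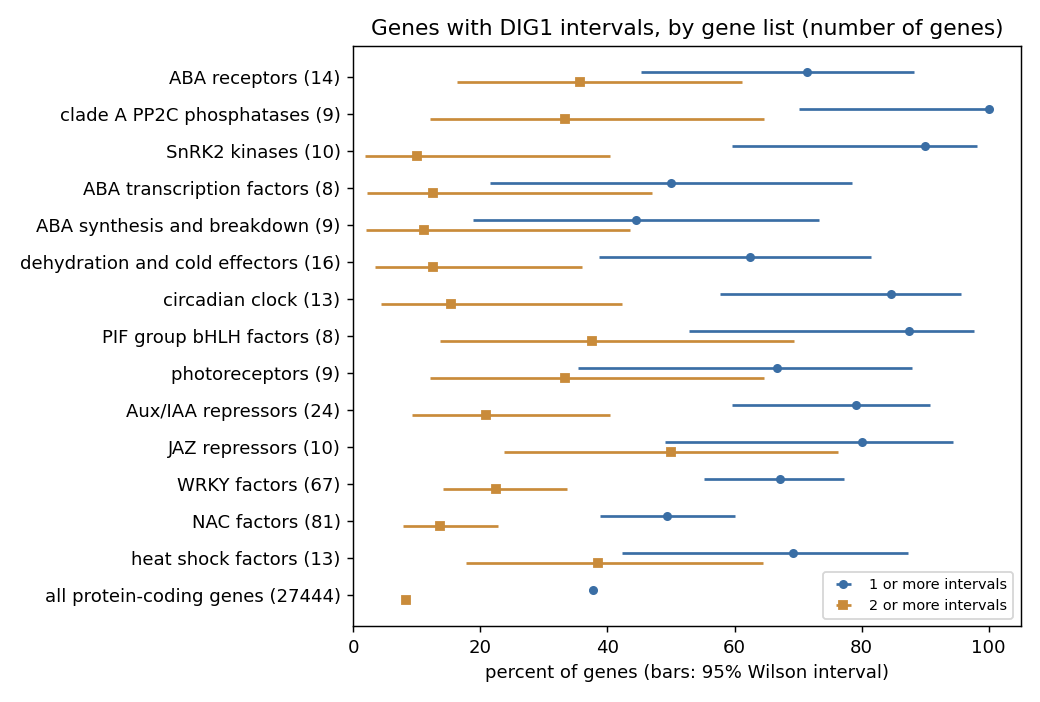
Percent of genes with 1 or more (circles) and 2 or more (squares) DIG1 intervals in the gene and 1000 bp on each side, for 14 gene lists and for all 27444 protein-coding genes, with 95% Wilson intervals as bars. The shares with 2 or more run from 1 of 10 SnRK2 kinases to 5 of 10 JAZ repressors, beside 8.32% of all genes.

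Of the genes at the 10 strongest intervals, nearly all held a single interval, as did 8058 of all 10342 genes with an interval. ABF3, AT5G13100, AT3G48140, COL9, AT4G33080 and AT1G62870 each held 1 interval, with summits 92, 124, 13, 259, 246 and 199 bp outside the gene and folds between 13.7 and 16.6. COL9 encodes a CONSTANS-like factor. The interval at rank 8 lay 197 bp outside AT3G61420 and 894 bp outside the aquaporin gene PIP1A (AT3G61430), the one gene here with a second interval, a weaker one beyond its other end (fold 3.72). The intervals at ranks 5, 9 and 10 had no protein-coding gene within 1000 bp of their strongest summit. The closest pairs of separate intervals, at 131 bp edge to edge, included a pair on chromosome 2 beside CDS4 (AT2G45150), one on chromosome 4 of which the second interval lay at AT4G37608, and one on chromosome 5 at AT5G17847 and AT5G17850, with summits 589, 564 and 683 bp apart. Also among them were 3 successive intervals on chromosome 5, which lay in reach of no protein-coding gene. In all, 6 pairs lay at 131 bp, and the 5 taken by the rule for named genes are described here.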

How the data were processed

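ChIP-seq of a GFP fusion of DIG1 was analysed from its peak list. Per the submitters' processing notes, reads were aligned with Bowtie 0.12.7 to TAIR10 and peaks were called with MACS2; the MACS2 version, the control, any pooling of replicates and the read depth are not stated there. In the deposited list each summit has the authors' fold enrichment (a ratio), −log10 p, −log10 q, a score and a summit offset. That score, deposited by the authors, was the whole part of 10 × −log10 q for 13459 of 13459 summits and was not used further. No −log10 p was under 16.

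An interval with several summits is repeated once per summit; distinct intervals were counted, and ranked by the −log10 p of their strongest summit. Printed coordinates follow the list and count from 1. For gene names and neighbourhoods the source was the RefSeq table of assembly TAIR10.1, with 38312 entries and 27444 nuclear protein-coding genes; none of its coordinates is printed. Moving all summits by up to 2000 bp, every 50 bp, they fell inside genes least often at shifts of -50 to 50 bp on the 5 chromosomes and of -100 to 100 bp in 26 blocks of 5 Mb. That table holds no strand and no sequence, so the planned split of gene starts and ends and the planned motif search were not run. Densities per Mb used the sequence between the first and the last protein-coding gene of each chromosome, which left out 1 summit.

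The window of 1000 bp, the 14 gene lists, the members and the rule for named genes were chosen with earlier results of these data known. All 96 list members given by locus were matched with their names, and the other 5 lists, not cleaned, are matches on gene symbols, which miss members listed under other symbols. Named genes were the 15 with most intervals, those at the 10 strongest intervals, at the 5 with most summits, at the 5 closest pairs and beside the 3 longest stretches without a summit, up to 3 members per list with those at 0 where 4 or fewer, and the labelled loci. Shares carry 95% Wilson intervals, which take genes as separate although neighbouring members of a list can share an interval. No test was run, since there is 1 list and no replicate. Counting functions were tested on simulated data. Alternatives were a −log10 p of at least 30, the strongest summit alone, interval midpoints, all gene types, windows of 500 and 2000 bp, the nearest gene only and intervals under 300 bp apart joined. Python 3.11.15, pandas 2.3.3, numpy 2.4.6 and scipy 1.17.1 were used.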

Additional observations from a re-analysis of the deposited data

How the results depend on the processing

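The share of summits inside genes was 28.1%, and was 26.5% with a −log10 p of at least 30 and 31.0% with all gene types, where the share outside within 1000 bp was 51.8% in place of 50.4%; with interval midpoints that share was 51.7%. The other shares stayed within the counting interval. The 3144 genes with 2 or more summits became 1837 with a window of 500 bp, 5375 with 2000 bp and 2050 with the nearest gene only. The 10342 genes with any summit became 7823 at a −log10 p of at least 30 and 7856 with the nearest gene only. They became 8507 with the window of 500 bp and 12798 with 2000 bp, so the share of all genes set beside the lists also depends on these settings. The 2284 genes with 2 or more intervals became 1306 at a −log10 p of at least 30, 1424 with the window of 500 bp, 4371 with 2000 bp and 1466 with the nearest gene only, and joining close intervals left 2046. The 288 genes with 3 or more became 110, 93, 1047 and 170 under the same 4 settings and 159 with close intervals joined. The median spacing of all neighbouring summits, 3262.5 bp, was 3863 bp at a −log10 p of at least 30 and 4650.5 bp with the strongest summit alone. Between intervals, 4550 bp became 6371 bp at the stricter threshold and 5157 bp with close intervals joined, and within intervals 539 bp became 613 bp with joining. By construction, the counts of genes and the spacings changed through fewer summits or intervals or another window; for the shares, the gene set or the position used was another, or the weak intervals, with 33.2% of summits inside genes in the weakest of 5 equal parts, were left out. All 15 genes with most intervals held at least 2 under each of the 5 settings run for them, with 2 to 6 intervals, though ROT3 and TGA9 fell to 3 at the stricter threshold. The motif comparison was not run. No paired analysis was possible because there is 1 sample per group and no replicate number. Depth is unknown, so intervals too weak for the threshold cannot be told from absent ones.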
